A study of Mus musculus with 8 samples.

Results

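T-box transcription factors were followed in the embryonic lower jaw of mice that lack the TGF-beta receptor Alk5 in neural crest cells. All 9 chosen genes of the family (Tbx1, Tbx2, Tbx3, Tbx4, Tbx5, Tbx15, Tbx18, Tbx20 and Tbx22) were measured, by 19 probe sets, among 18194 genes on the array. A probe set is the group of short probes that reads one transcript, and a gene was represented by its brightest probe set. RNA came from the mandibular arch at embryonic day 11.5, on 8 Affymetrix arrays. There were 4 arches of genotype Alk5 fl/fl; Wnt1-Cre (the mutants) and 4 of genotype Alk5 fl/fl (the controls), all of strain C57BL/6J with sex not determined. Both groups carry the floxed Alk5 alleles. The Wnt1-Cre driver removes the gene in the neural crest lineage, so the mutant arch still holds cells of other origin, such as muscle precursors, epithelium and blood, with the receptor gene intact. No Cre is named for the controls, so effects of the driver and of the loss of Alk5 cannot be told apart. The labels do not say whether samples with different numbers came from separate embryos or litters, so the p-values speak of the spread among these samples, which may be technical.

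T-box proteins share a DNA-binding domain first known from brachyury, and act as activators or repressors of genes that set the identity of embryonic tissues. Dosage matters in this family: in humans, loss of TBX1 function contributes to 22q11.2 deletion syndrome with its jaw, palate and outflow tract defects, and loss of TBX22 causes X-linked cleft palate. Close relatives within the family are Tbx2 with Tbx3, Tbx4 with Tbx5, and Tbx15, Tbx18 and Tbx22 with each other.

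The arrays' median log2 value lay between 6.28 and 6.42. Mutant 3 stood apart from the others, with a standard deviation over all probe sets of 2.42 against 2.52 to 2.56 elsewhere. Control 4 lay between the other controls and the mutants for Tbx15, Tbx18 and several genes named below, so changes that move by over 1.5 times, and calls that change, without either array are given without it too. The targeted gene Tgfbr1, another name of Alk5, read 12.97 to 12.99 in mutants and 12.71 to 12.90 in controls on its brightest probe set. Its other probe sets, 1420893_a_at and 1420894_at, also had higher means in mutants, with changes of 0.51 and 0.30. No Tgfbr1 probe set passed over all probe sets. Whether these probe sets lie outside the floxed part is not known here, so they do not check the deletion. Of the 12 marker genes of arch mesenchyme, 11 were bright, such as Prrx1 (12.93 in mutants and 13.27 in controls) and Twist1 (11.78 and 11.94), and Alx4 was not (6.03 and 6.09). Of all genes, 390 differed between mutants and controls at a limma adjusted p under 0.05 (Benjamini-Hochberg), 2.14% of those tested. "Fell" and "rose" below mean past that threshold, and every change is given on the log2 scale as mutant minus control.

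Tbx18 was the single member that fell. Its protein is a repressor known from somites, the sinus node, the epicardium and the mesenchyme around the ureter. The 300 bases around its start (RefSeq, GRCm38.p6, chr9:87731211-87731510, minus strand, 250 before and 50 after the start) are shown because it is the member the comparison calls. Capitals mark GTCTG, the short Smad-binding sequence, at position -149 and ATTGG, which is CCAAT on the other strand, at -87.
Tbx18 promoter: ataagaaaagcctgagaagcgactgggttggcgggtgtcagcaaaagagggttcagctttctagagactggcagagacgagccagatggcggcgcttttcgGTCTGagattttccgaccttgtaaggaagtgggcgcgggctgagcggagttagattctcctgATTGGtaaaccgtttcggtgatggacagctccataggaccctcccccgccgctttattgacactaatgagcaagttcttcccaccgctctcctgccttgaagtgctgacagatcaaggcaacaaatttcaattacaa

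Tbx18 read 8.18, 8.28, 7.15 and 7.22 in mutants 1 to 4, against 9.95, 10.43, 10.02 and 8.84 in controls 1 to 4 (log2 values). Every mutant lay below every control. Mutants 1 and 2 were close to each other and about a full log2 unit above mutants 3 and 4, and control 4 was the lowest control. The group means were 7.71 ± 0.605 in mutants and 9.81 ± 0.680 in controls (SD, n = 4 each), a change of -2.11 ± 0.365 (SE), or 4.30-fold lower (limma adjusted p = 0.0222). In bulk tissue, fewer cells that express a gene and less RNA per cell cannot be told apart. These values came from its brightest probe set, 1429974_at. The other Tbx18 probe set, 1449871_at, read 6.42, 6.59, 5.53 and 5.41 in mutants against 8.25, 8.57, 8.20 and 6.94 in controls. The 2 probe sets thus ordered the groups alike, with a change of -2.01 ± 0.371 on the second one. Over single probe sets 0.845% were called, 0.49% in the lower direction, and these were the 2 of 19 T-box probe sets called. The call was lost without mutant 4 (adjusted p = 0.0811) and without control 1 (0.0698), control 2 (0.0851) or control 3 (0.0869). Without control 4 the change was -2.43, with an adjusted p of 0.00407, and without mutant 3 it was -1.92, with an adjusted p of 0.0410.

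Tbx15, the closest relative of Tbx18, shapes skeletal elements and the skin's pigment pattern in mice. It read 7.89, 7.76, 7.15 and 6.74 in mutants 1 to 4, against 9.80, 9.96, 9.92 and 7.89 in controls 1 to 4. Controls 1 to 3 were nearly level, while control 4 lay 0.798 of the way from their mean to the mutant mean and only just above mutant 1. For Tbx18, control 4 had covered 0.533 of that way. The means were 7.38 ± 0.534 in mutants and 9.39 ± 1.00 in controls (SD, n = 4 each), a change of -2.01 ± 0.454 (SE) that did not pass over all genes (limma adjusted p = 0.0588). Without control 4 the change was -2.51 ± 0.252 and passed (adjusted p = 0.00178). The weaker probe set, 1422195_s_at, read 5.25 to 5.40 in mutants and 5.54 to 6.23 in controls, and control 4 was again the lowest control. Its change was -0.66, and the mean over both probe sets changed by -1.34 (adjusted p = 0.0502).

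**Figure D1:**
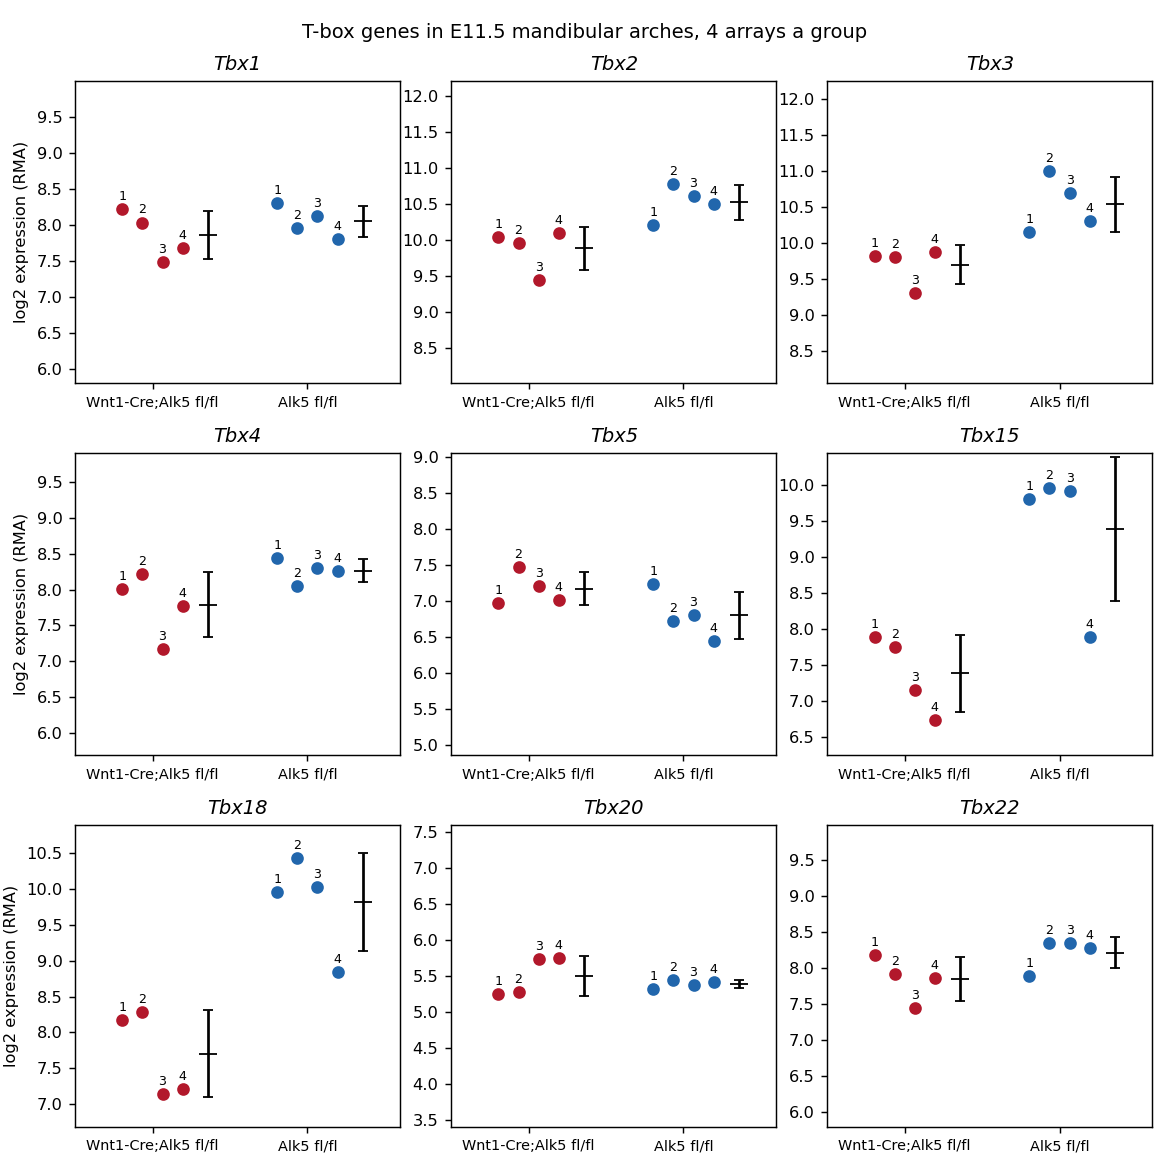
Log2 expression of the 9 T-box genes in each array, mutants left in red and controls right in blue, with the replicate number above each point and the mean ± SD as a bar; every panel spans the same range of log2 units. Tbx18 and Tbx15 show the widest gap between groups, with control 4 at 8.84 and 7.89, while Tbx20 stays between 5.25 and 5.75.

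Tbx15 and Tbx18 varied together across the arrays. After each profile was centred on its own mean over the 8 arrays, they differed by a root mean square of 0.285 log2 units, which made Tbx15 the 6th nearest of 18193 other genes to Tbx18, and Tbx18 the 4th nearest to Tbx15. This likeness is a description over 8 arrays that share their groups. The 3 genes nearest to Tbx18 were Nfix, a nuclear factor I gene (0.161), Pax9, a paired-box gene needed for teeth and palate (0.211), and Otor, which encodes a secreted protein of the inner ear (0.240). Like Tbx18, all 3 had control 4 below the other controls: Nfix read 9.19 in control 4 against a mean of 10.60 in the other controls, Pax9 8.48 against 9.42, and Otor 8.90 against 10.06. Their changes were -2.08 for Nfix, -1.99 for Pax9 and -1.92 for Otor, each past the threshold. Nfix lost its call without mutant 1 or 4 or control 1, 2 or 3, Pax9 without mutant 4 and Otor without control 2. Over the mean of their probe sets, Nfix changed by -1.06 and Pax9 by -1.22.

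**Figure D2:**
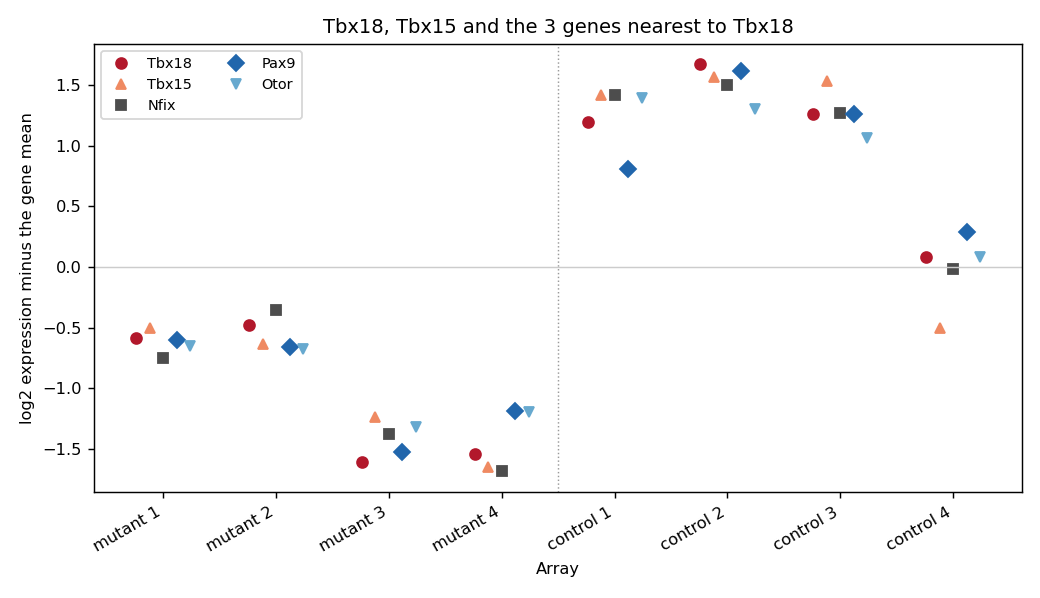
Log2 expression minus the gene's own mean over 8 arrays for Tbx18, Tbx15 and the 3 genes nearest to Tbx18, by array, mutants left of the dotted line and controls right. In control 4 every one of the 5 genes lies below its value in the other controls, and mutants 3 and 4 lie lowest.

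Tbx2 and Tbx3 encode closely related repressors, known in embryos for roles in the heart's conduction system and in outgrowth of limb and mammary bud. Both were bright in the arch and lower in every mutant than in any control, yet neither passed over all genes. Tbx3 read 9.82, 9.80, 9.30 and 9.88 in mutants 1 to 4, against 10.15, 11.001, 10.69 and 10.30 in controls 1 to 4. Mutant 3 was well below the other mutants, which lay close together. The change was -0.83 ± 0.196 (SE, limma adjusted p = 0.0688), or 1.78-fold. A second bright probe set, 1437479_x_at, read 9.08 to 9.74 in mutants and 10.06 to 10.88 in controls, a change of -0.96. The remaining 3 Tbx3 probe sets read below 6.4 on every array, with changes between -0.22 and 0.03. Tbx3 passed over the mean of its probe sets (-0.42, adjusted p = 0.0423) and with its most variable one (-0.96, adjusted p = 0.0425).

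Tbx2 read 10.04, 9.96, 9.45 and 10.11 in mutants 1 to 4, against 10.21, 10.78, 10.62 and 10.50 in controls 1 to 4. The groups did not overlap, but the gap between mutant 4 and control 1 was small. The change was -0.64 ± 0.163 (SE, limma adjusted p = 0.0913), or 1.56-fold. Both genes had their lowest value of all arrays in mutant 3. Without that array the change was -0.49 for Tbx2 (adjusted p = 0.0777) and -0.70 for Tbx3 (adjusted p = 0.0910). Control 4 did not stand apart for Tbx2, lying 0.0540 of that distance below the other controls' mean, while for Tbx3 it lay 0.344 of it below. Tbx3 was the nearest member to Tbx2 and the reverse, with a root mean square difference of 0.150, and of 18193 genes Tbx2 ranked 5th for Tbx3 and Tbx3 ranked 30th for Tbx2.

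The close relatives Tbx4 and Tbx5 had changes of opposite sign. Tbx4, which acts in hindlimb and lung bud outgrowth, read 8.001, 8.22, 7.17 and 7.77 in mutants 1 to 4, against 8.43, 8.05, 8.30 and 8.26 in controls 1 to 4. The groups overlapped, and mutant 3 was the lowest array. Its change was -0.47 ± 0.199 (SE, limma adjusted p = 0.338), and its weaker probe set changed by -0.02. Without mutant 3 the Tbx4 change was -0.26 (adjusted p = 0.319). Tbx5, which acts in heart and forelimb, read 6.97, 7.47, 7.21 and 7.02 in mutants 1 to 4, against 7.23, 6.72, 6.80 and 6.44 in controls 1 to 4. Control 1 lay among the mutants, and the change was 0.37 ± 0.169 (SE, limma adjusted p = 0.387). The weaker Tbx5 probe set changed by 0.13. Without mutant 3 the difference between their changes, Tbx4 minus Tbx5, was -0.62, and with all arrays it was -0.84.

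Tbx1, a regulator of pharyngeal endoderm and of the core mesoderm from which jaw muscles form, was read by 1 probe set. Tbx1 read 8.22, 8.03, 7.48 and 7.67 in mutants 1 to 4, against 8.31, 7.96, 8.12 and 7.80 in controls 1 to 4. The ranges overlapped widely, and the change of -0.20 had 95% limits of -0.57 and 0.18 (limma adjusted p = 0.684). It was -0.07 without mutant 3, -0.11 without control 1 and -0.32 without mutant 1. Of 7 measured markers of head muscle precursors, 0 passed in limma's fit. An unadjusted p under 0.05 was reached by 1 of them and by 2450 of all 18194 genes. The markers' median change was 0.07 against -0.01 over all genes. Without mutant 3, 1 of them rose.

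Tbx22, the X-linked palate gene, read 8.19, 7.92, 7.44 and 7.86 in mutants 1 to 4, against 7.89, 8.34, 8.35 and 8.28 in controls 1 to 4. Mutant 3 was the lowest and control 1 lay among the mutants. The change of -0.37 ± 0.161 (SE) did not pass (limma adjusted p = 0.364). Without mutant 3 it was -0.23 (adjusted p = 0.429), and with a sex score as a covariate it was -0.45 (adjusted p = 0.152).

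Tbx20, a cardiac T-box gene that also acts in cranial motor neurons, was the one dim member. It read 5.25, 5.27, 5.73 and 5.75 in mutants 1 to 4, against 5.32, 5.44, 5.37 and 5.42 in controls 1 to 4. Both group means lay below 5.83, the 95th percentile of 44 probe sets for olfactory receptors, genes not known to be active in the arch. Mutants 3 and 4 were above the controls and mutants 1 and 2 below them, and the change was 0.12 ± 0.126 (SE, limma adjusted p = 0.754). Leaving out single mutants gave 0.03 to 0.20. Among 9 measured heart muscle markers, Myh6, Myl2, Nppa, Nppb and Tnni3 also lay below that olfactory receptor level in both groups. Of the 9 markers 1 passed, the atrial light chain gene Myl7, with a change of 0.43. It lost its call in 7 of 8 fits that each left out 1 array. Its part in the values of Tbx5 and Tbx20 was not tested.

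The family's remaining genes gave no call. Of 8 listed, 6 were measured (Eomes, Tbr1, Tbx6, Tbx19, Tbx21 and Mga). In limma 0 of them had an unadjusted p under 0.05, against 2450 of all 18194 genes, and their median change was 0.04. Mga, which pairs a T-box with a second DNA-binding domain and is active in many cells, read 9.05 to 9.53 in mutants and 9.22 to 9.42 in controls on its brightest probe set, a change of -0.05. Tbx19, a pituitary gene, changed by 0.06. Tbx21 of T lymphocytes (0.07), Eomes (0.09), Tbr1 of cortical neurons (0.03) and Tbx6 of presomitic mesoderm (-0.04) all lay below the olfactory receptor level.

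Seen as a family, 7 of the 9 members had a change below 0 and 2 above it, with a median of -0.47 against -0.01 over all genes. The single call, Tbx18, compares with 2.14% called among all genes, or 1.31% called in the lower direction. In 4 members (Tbx2, Tbx3, Tbx15 and Tbx18) all mutants lay below all controls, the smallest exact permutation p that 70 relabelings allow (0.0286, two-sided, unadjusted). Over all genes 7.02% had mutants below controls without overlap, and 10.3% had no overlap in either direction. Mutant 3 was the lowest array for 6 members, and without it the median change of the 9 members was -0.26. The count of members called was 2 without control 4 (Tbx15 and Tbx18) and 0 without mutant 4 or without control 1, 2 or 3. Over all genes 2.80% were called without control 4, 0.594% without mutant 4, and 0.830%, 0.599% and 0.572% without control 1, 2 and 3. By the mean over all 8 arrays, the 4 members without overlap were also the 4 brightest. They ran from the 58.6th percentile of gene levels for Tbx15 to the 80.4th for Tbx2, and Tbx20 was the dimmest, at the 21.5th. That mean includes the control values that set the groups apart. In mutants alone, Tbx18 (7.71) and Tbx15 (7.38) read below Tbx1 (7.85), Tbx22 (7.85) and Tbx4 (7.79). Both read above Tbx5 (7.17) and Tbx20 (5.50) there.

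**Figure D3:**
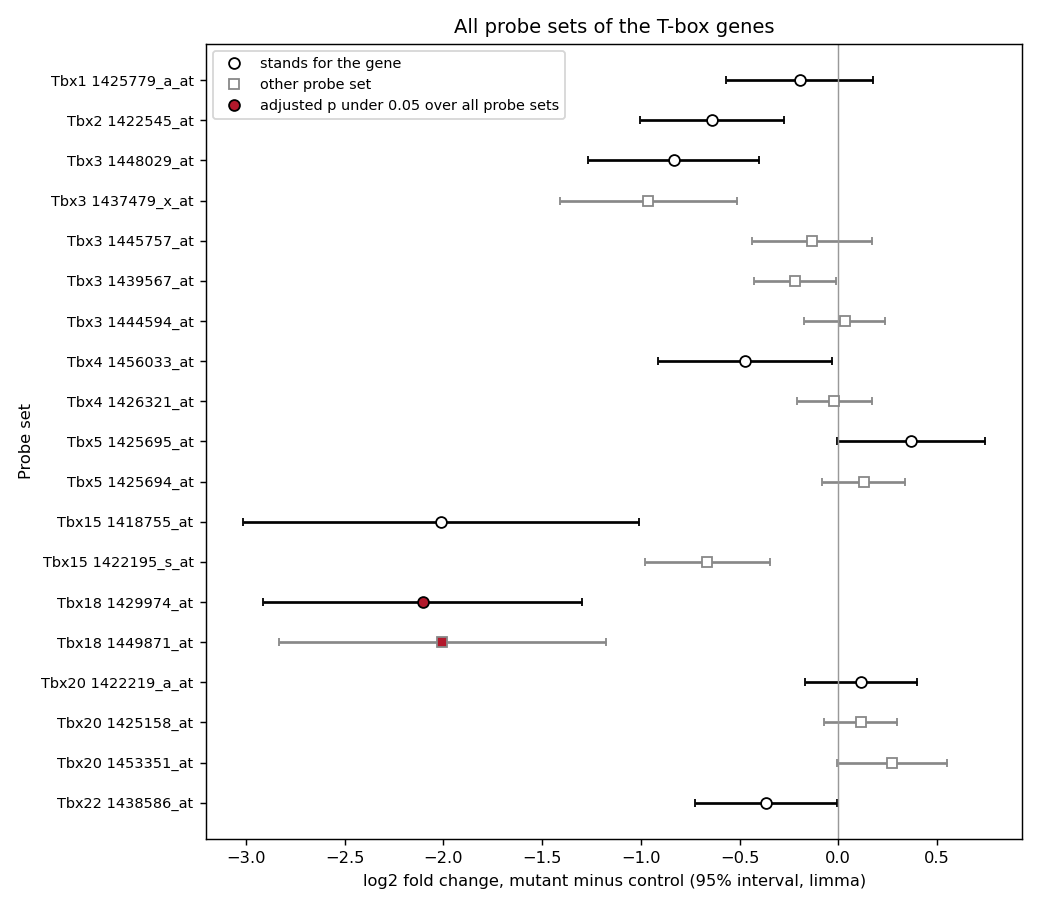
Change of all 19 probe sets of the 9 T-box genes, mutant minus control, with 95% intervals from limma; circles stand for the gene, squares are its other probe sets, and filled symbols passed over all 45101 probe sets. The 2 Tbx18 probe sets are filled, at -2.11 and -2.01, and the weaker Tbx4 probe set lies at -0.02.

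Changes were compared within 5 pairs of relatives by an exact permutation of the per-array difference, two-sided and adjusted over the 5 pairs. None passed after adjustment, and 0.0714 was the smallest adjusted p. With 70 relabelings the exact p cannot fall below 0.0286, and the pairs Tbx18 with Tbx22 and Tbx4 with Tbx5 stood at that floor. Given the exact p of the other pairs, these pairs could not pass after adjustment however far apart their groups lay. No conclusion is therefore drawn from their lack of a pass. Tbx18 changed more than Tbx22 by -1.74 ± 0.416 (SE), with every mutant difference below every control difference (exact p = 0.0286). Tbx4 and Tbx5 differed by -0.84 ± 0.266, likewise without overlap (exact p = 0.0286). Tbx15 minus Tbx22 gave -1.64 ± 0.572 (exact p = 0.114), and Tbx2 minus Tbx3 gave 0.19 ± 0.0931 (exact p = 0.0857). For Tbx15 minus Tbx18 the difference was 0.10 ± 0.229 (exact p = 0.743), which does not show that they changed alike. Without control 4 it was -0.08, without mutant 3 it was -0.01, and leaving out other single arrays gave up to 0.20. Over the mean of probe sets the Tbx15 and Tbx18 difference was 0.72 and the Tbx2 and Tbx3 difference -0.22, turned in sign. By that mean Tbx4 minus Tbx5 gave -0.49, Tbx15 minus Tbx22 -0.97 and Tbx18 minus Tbx22 -1.69.

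The genome places Tbx2 beside Tbx4 on chromosome 11 and Tbx3 beside Tbx5 on chromosome 5 (RefSeq gene order among protein-coding genes). The changes were -0.64 for Tbx2 beside -0.47 for Tbx4, and -0.83 for Tbx3 beside 0.37 for Tbx5. Of the flanking genes that are no members, 13 of 14 were measured. In limma 0 passed and 3 had an unadjusted p under 0.05, with changes between -0.53 and 0.18. Of all 18194 genes, 2450 had an unadjusted p under 0.05. The smallest adjusted p among them was 0.0577, for Bcas3, which lies next to Tbx2 (-0.53 ± 0.118, SE, limma). Next to Tbx18, Cep162 changed by -0.07 and Nt5e by 0.18. Next to Tbx15, Wars2 changed by -0.21 and Spag17 by -0.17.

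Promoter windows from RefSeq were at hand for 5 members (Tbx1, Tbx4, Tbx18, Tbx20 and Tbx22), 8 windows in all because some genes have several starts. The T-box half-site, spelled GGTGTGA or TCACACC on the other strand, occurred in 0 of the 8 windows and in 3.98% of 32851 promoters of the same length. GTCTG, or CAGAC on the other strand, occurred in 5 of the 8 and in 49.6% of all promoters. CCAAT, or ATTGG, occurred in 2 of the 8, the Tbx18 window printed above and 1 of Tbx22, and in 37.4% of all. The Tbx18 window held 15 CpG pairs, against a median of 7 over all promoters, and the 3 Tbx22 windows held 1 or 2. A match of letters is a description and says nothing about binding.

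Genes known to act upstream of T-box genes in embryos were called in both directions, with more changes below 0 than above. Among 19 measured genes the test called 4 lower and 2 higher, leaving 13 uncalled, and the median change was -0.27. The change was below 0 for 15 and above 0 for 4. In limma 13 of the 19 had an unadjusted p under 0.05, against 2450 of all 18194 genes. Without control 4 it called 6 lower and 2 higher, and without mutant 3 as well 7 lower and 4 higher. The share called over all genes was 2.80% and 6.19% in those fits. Bmp4, a ligand that induces Tbx2 and Tbx3 in several tissues, read 10.24 ± 0.327 in mutants and 11.40 ± 0.255 in controls (SD, n = 4 each), a change of -1.16. Pitx1, which acts above Tbx4 in the hindlimb, changed by -1.10, the retinoic acid enzyme gene Aldh1a2 by -1.16 and Eya1, a transcriptional coactivator of the ear and pharyngeal arches, by -0.76. The rises were Foxc1, a forkhead gene upstream of Tbx1 in head mesenchyme (1.99), and Chd7, the chromatin remodeler that interacts with Tbx1 in mice (0.89). Mn1, which acts above Tbx22 in the palate, changed by -0.32 and did not pass (limma adjusted p = 0.313). Bmp2 changed by -1.15 and did not pass either (limma adjusted p = 0.0549). Pitx1 and Foxc1 passed in each of 22 alternative fits. Bmp4 lost its call without mutant 4 or control 2 or 3, Aldh1a2 and Chd7 without mutant 1 or 4 or control 1, 2 or 3, and Eya1 without control 3. Eya1 changed by -0.47 over the mean of its probe sets.

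Targets of T-box proteins mostly gave no call: 17 of 20 did not pass, 2 were called lower and 1 higher, and the median change was 0.08. Without mutant 3 and control 4 there were 2 lower and 4 higher, with 6.19% of all genes called. Gbx2, which responds to Tbx1 in pharyngeal ectoderm, rose to 8.02 ± 0.353 in mutants, against 6.18 ± 0.693 in controls (SD, n = 4 each), a change of 1.84. Cyp26b1, whose enzyme breaks down retinoic acid, fell by 1.47, and Wnt5a, a WNT ligand gene, fell by 0.95. Targets named with the cardiac and muscle roles of the family did not pass, among them Nppa (0.12), Nkx2-5 (0.07), Tcf21 (0.07) and Myf5 (0.30). Larger changes that did not pass either were 0.72 for Lhx2 (limma adjusted p = 0.0686) and -0.50 for Mef2c (limma adjusted p = 0.347). Lhx2 read 4.71 to 5.40 in mutants and 4.10 to 4.64 in controls, below the olfactory receptor level. Nppa lay below the olfactory receptor level, at 4.77 in mutants and 4.65 in controls, so a change could be hidden there. Gbx2 lost its call without mutant 1 or 4 or control 1, 2 or 3, Cyp26b1 without mutant 4 or control 2 or 3, and Wnt5a without any single array other than control 4.

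Among 19 measured partners of T-box proteins, 3 were called lower, 2 higher and 14 not at all, and the median change was -0.05. Pax3, which binds with Tbx18 in somites, fell by 2.00. It read 7.81, 7.86, 7.63 and 7.52 in mutants 1 to 4, against 9.54, 10.24, 9.99 and 9.06 in controls 1 to 4, so that mutants were nearly level and control 4 was again the lowest control. Sall4, a zinc finger partner of Tbx5, rose by 1.87, and Chd7 stands in this list too. The Groucho corepressor genes, whose proteins T-box repressors recruit, did not share 1 call: Tle1 fell by 0.62 and Tle2 by 0.59, while Tle3 (-0.01) and Tle4 (-0.10) did not pass. Pax3 and Sall4 passed in each of 22 alternative fits. Tle2 lost its call without mutant 4 or control 1, 2 or 3. Tle1 passed in 9 of 22 alternatives. It lost its call without mutant 2 or 4 or any 1 control, with the replicate block, over the mean of probe sets, with the most variable probe set, with every probe set fitted on its own and with arrays centred on the median, and its change was -0.37 over the mean of its probe sets.

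**Figure D4:**
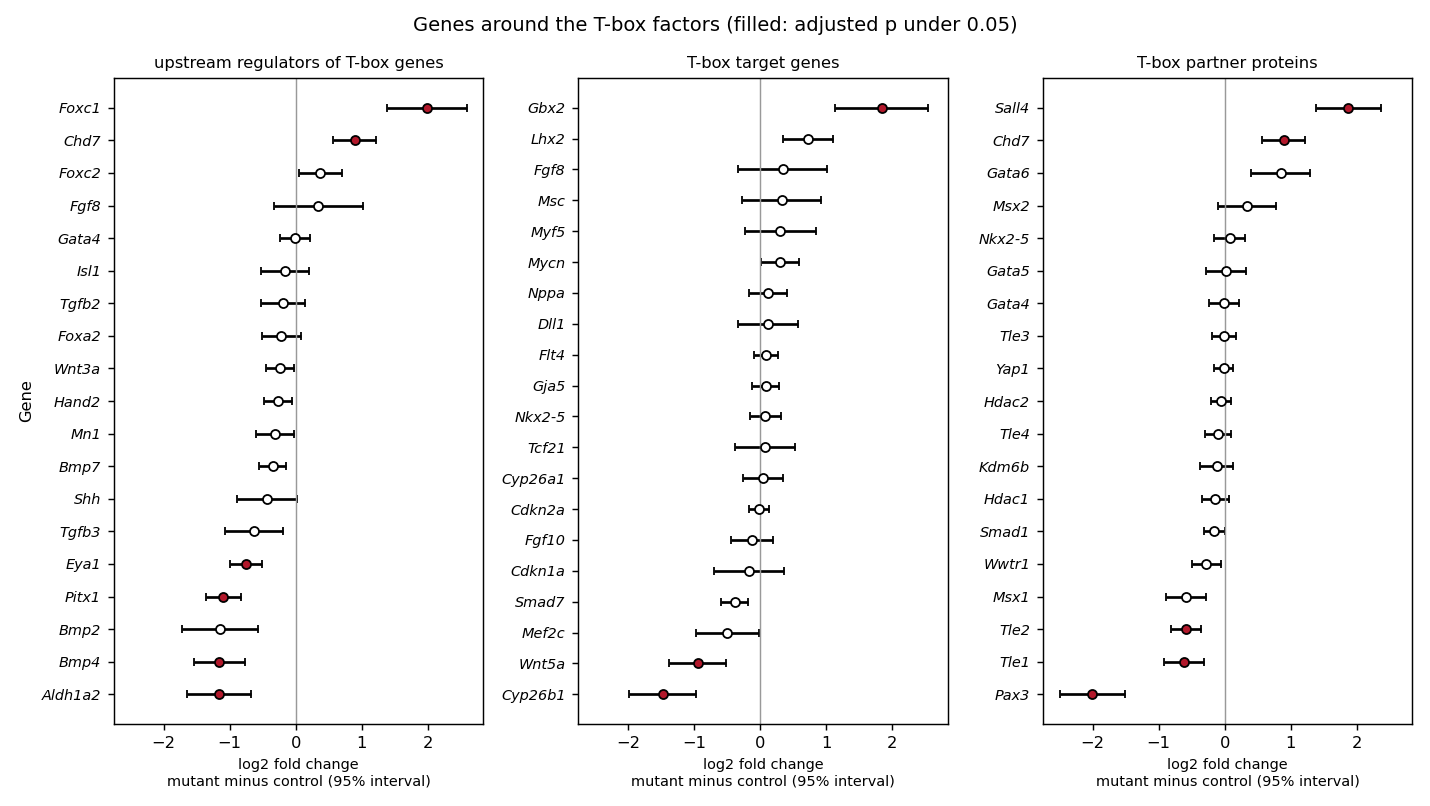
Change of each measured gene in the lists of upstream regulators (19 genes), targets (20) and partner proteins (19) of T-box factors, mutant minus control, with 95% intervals from limma; filled points passed over all genes. Foxc1, Gbx2 and Sall4 lie farthest right and Pax3 farthest left.

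Markers of other cells moved in the same arrays. Of 12 macrophage markers, 10 rose, with a median of 1.12, led by the complement genes C1qb (1.54), C1qc (1.52) and C1qa (1.40) and the surface receptor gene Adgre1 (1.21). Without mutant 3, with 3.40% of all genes called, the count was 12, and without control 4 it was 9. Their summed log2 level was 94.0 to 100.045 in mutants and 84.4 to 86.1 in controls. Of 7 measured pharyngeal endoderm markers, 1 fell (Pax9) and 2 fell without control 4, and the summed level was 48.3 to 49.9 in mutants and 50.2 to 54.8 in controls. The sums of the 5 genes other than Pax1 and Pax9 overlapped, at 35.2 to 36.1 in mutants and 35.4 to 36.5 in controls. Control 4 gave the lowest control sum over the 7 genes, and Pax1 read 6.31 there against 7.89 to 8.91 in the other controls. Of 7 measured Hox genes of the posterior arches 1 rose (Hoxb2, 0.83). Summed levels were 39.5 to 41.4 in mutants and 37.8 to 39.2 in controls. These sums include Hoxb2, which changed most, so their lack of overlap does not speak for the other genes. The other Hox genes changed by 0.08 to 0.35 and did not pass. Among them Hoxa2, Hoxb1 and Hoxd3 lay below the olfactory receptor level in both groups. Of 10 measured neuronal markers 1 fell (Tubb3, -1.67), a call lost without mutant 4 or control 3, and 2 fell without control 4. Of 11 epithelial markers 0 passed in limma and 1 had an unadjusted p under 0.05, of 8 endothelial markers 0 and 1, and of 8 erythroid markers 0 and 3. Over all 18194 genes, 2450 had an unadjusted p under 0.05. Of 13 measured genes of position along the arch 2 rose, Dlx4 (1.53) and Dlx3 (1.35), and 3 fell, Lhx6 (-1.67), Shox2 (-1.38) and Lhx8 (-1.36), and without control 4 there were 4 of each. Of the 12 arch mesenchyme markers 1 rose (Dlx2, 0.56). Of 8 mural cell markers 1 rose (Rgs5, 1.17), a call lost without mutant 1, 2 or 4 or control 1, 2 or 3, while summed levels overlapped, at 69.6 to 72.4 in mutants and 69.2 to 71.9 in controls. The part of any of these lists in the T-box values was not tested.

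**Figure D5:**
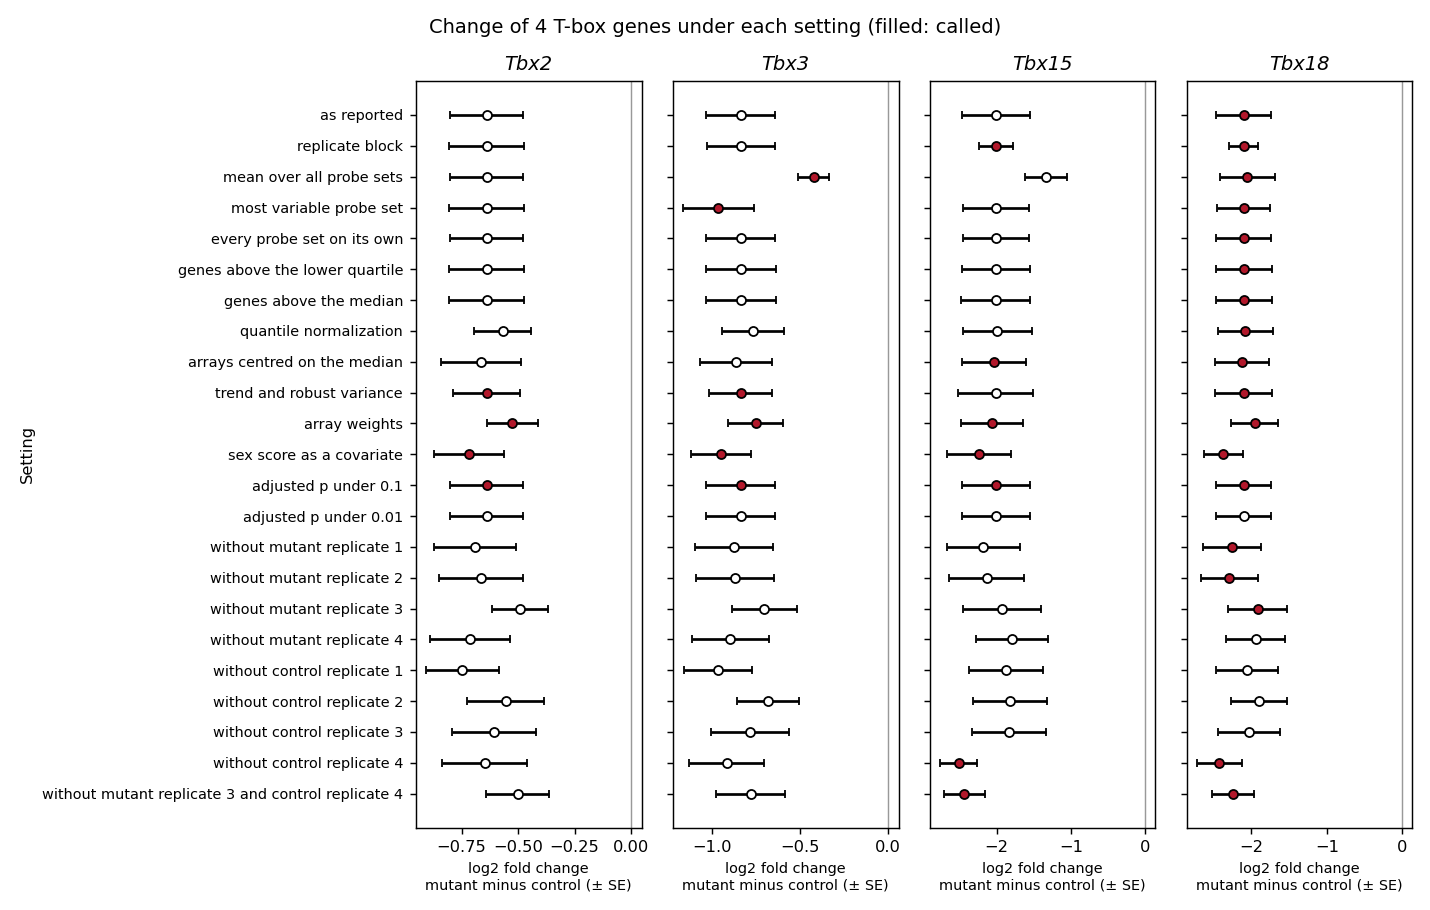
Change of Tbx2, Tbx3, Tbx15 and Tbx18, mutant minus control, as reported and under each of 22 other settings, with the SE as bars and filled points where the gene passed; the horizontal scale differs between panels. All points lie left of 0, and Tbx18 is filled in 17 of the 22 other settings, Tbx15 in 7, Tbx3 in 6 and Tbx2 in 4.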

How the data were processed

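The authors deposited log2 expression values per probe set for 8 arrays, made with RMA per the submitters' processing notes, which give no version. RMA corrects background, equalizes arrays and compresses differences of dim probe sets. RNA was column-purified and biotin-labelled, per the labels' protocols. Of 45101 probe sets, 34958 had 1 gene symbol in the platform annotation, 932 several and 9211 none; 34754 matched RefSeq (GRCm38.p6) by Entrez identifier. No detection calls were used, and the number of arrays limits precision. The brightest probe set stood for each of 18194 genes. Mutants were compared with controls in limma 3.58.1 (R 4.3.3; lmFit, eBayes, no covariates), with Benjamini-Hochberg adjustment over all genes and a threshold of 0.05; the steps were tested on simulated data. Single probe sets were fitted over all 45101. Alternatives covered the replicate block, probe set choice, dim-gene filters, normalization, variance models, array weights, a sex score, thresholds and leaving out arrays. The members and lists were chosen with earlier results of these data known. Named genes were all T-box genes, up to 6 called genes a list, the 3 profiles nearest to a called member and up to 4 called markers a list; others named were chosen after their values were seen, and flanking genes by position.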

Additional observations from a re-analysis of the deposited data

Results flagged for a closer look

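In a group of 4 arrays, a single array was singled out where its gap to the nearest of the others took up most of the group's range (Dixon's test). Of 38 groups tested over 19 probe sets of the T-box genes, 5 gave such an array, and chance gives about 1 in 20. Control 4 stood out low for Tbx15, at 7.89 against a nearest control of 9.8 on its brightest probe set, a gap of 0.925 of the range. On the weaker Tbx15 probe set, control 4 read 5.54 against 6.14. Mutant 3 was low for Tbx3, at 9.3 against 9.8. Control 1 was low for Tbx22, at 7.89 against 8.28. Mutant 2 was high on a dim Tbx20 probe set, 1453351_at, at 4.37 against 3.93.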

How the results depend on the processing

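All 9 T-box members kept the sign of their change under each alternative that measured them (22 settings, 21 for Tbx5 and 20 for Tbx20), but the calls moved. The 1 member called became 2 with the replicate block, over the mean of probe sets, with the most variable probe set and with arrays centred on the median, 3 with trend and robust variance, 4 with array weights, with the sex score and at an adjusted p under 0.1, and 0 at an adjusted p under 0.01. Over all genes 2.14% were called as reported, and 1.61%, 1.87%, 1.85% and 1.69% in the settings that gave 2 members. The share was 3.18% with trend and robust variance, 7.45% with array weights and 2.91% with the sex score. At an adjusted p under 0.1 it was 3.65%, and at one under 0.01 it was 0.451%. Leaving out single arrays gave 0 to 2 members, with 0.572% to 3.40% of all genes called. Leaving out mutant 3 and control 4 together, an alternative chosen after seeing the data, gave 2, with 6.19% called. The 390 genes called became 620 after quantile normalization, 1356 with array weights, 664 at an adjusted p under 0.1 and 82 at one under 0.01; leaving out single arrays gave 104 to 618, and leaving out mutant 3 and control 4 gave 1126. Between relatives, the Tbx2 and Tbx3 difference of 0.19 became -0.22 and the Tbx15 and Tbx18 difference of 0.10 became 0.72 over the mean of probe sets. There Tbx4 minus Tbx5 went from -0.84 to -0.49, and Tbx15 minus Tbx22 from -1.64 to -0.97. The mean takes in weaker probe sets, with changes of -0.22 to 0.03 for 3 of Tbx3 and -0.66 for the other one of Tbx15. The weaker probe sets of Tbx4 and Tbx5 changed by -0.02 and 0.13. Tbx2 has 1 probe set. Why the counts of calls moved was not tested. The correlation of deviations over all genes between samples of the same number was 0.03, 0.00, -0.12 and 0.41 for numbers 1 to 4. Between mutants and controls of different numbers it ran from -0.33 to 0.28. The numbers were not taken as pairs, and the block gave 293 genes and 2 members, Tbx15 (adjusted p = 0.0108) and Tbx18 (adjusted p = 0.00561). Dim members such as Tbx20 limit what can be seen, since signal near background compresses changes.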
